A study of Mus musculus with 6 samples.

Results

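The genes described here encode the machinery that copies DNA, from the proteins that mark replication origins to those that join the finished strands and rebuild chromatin behind the fork. They were chosen by name, as a list of 42 mouse genes. Of these, 40 were read by a probe set of their own, the group of short probes that reports on 1 transcript, among 8251 genes so read on the array. Pole and Gins1, which encode the catalytic subunit of DNA polymerase epsilon and a GINS subunit, had none and were not analysed here. For the 10 genes read by several probe sets, the one with the brightest mean over all arrays was taken. A filter that left out the dimmest 40% of probe sets, which lay below a mean level of about 29.0 signal units, was passed by 38 of the 40 genes. The dimmest member that passed was Pole2 at a mean level of 32.6, and Mcm6 and Dbf4, at 6.69 and 2.13, did not pass.

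Expression was measured on 6 one-colour Affymetrix arrays of cells of line 35/1-22, derived from NIH3T3, which are immortalised fibroblasts of the mouse, and grown in serum. All the cells carried c-myc and Ha-ras under a Tet-off promoter, which doxycycline silences, together with a constitutively made fusion of IRF-1 to the estrogen receptor, which estradiol activates. The estradiol group had the oncogenes on and was treated with estradiol for 48 h, at a labelled concentration of 1 mM. The withdrawal group had the oncogenes on and no estradiol, and the doxycycline group was kept in 2 µg/ml doxycycline with the oncogenes off. Each group held 2 arrays, replicate 1 from RNA extracted with RNeasy and replicate 2 from RNA extracted with TRIZOL. All samples came from the same engineered line, so differences between lines are not covered, and nothing states that the replicates were separate cultures. The p-values therefore measure the spread between these samples, which may be technical.

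DNA is copied once per cell cycle because loading and firing of origins are kept apart in time. In G1 the origin recognition complex, Cdc6 and Cdt1 load the MCM helicase, a ring of the Mcm2 to Mcm7 proteins, while geminin blocks Cdt1 afterwards. In S phase the Cdc7 kinase with its partner Dbf4, together with Cdc45, GINS and Mcm10, activates the helicase, and primase, the polymerases, the sliding clamp and the ligase follow. Many of these genes are transcribed under control of the E2F factors, which are released when cyclin-dependent kinases phosphorylate the retinoblastoma protein.

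The labelled cell type was checked against its markers. Of 10 fibroblast markers, 9 passed the filter, with collagen gene Col1a1 between 4211 and 6870.6, while vimentin gene Vim lay between 5.9 and 40.7. Their summed signals were 20741.6 and 15966.6 with estradiol, 20726.1 and 26132.7 after withdrawal and 28889.5 and 26974.6 with doxycycline. Pdgfra, a receptor of mesenchymal cells, had signals of 617.4 and 359.9 with estradiol, 590.7 and 2138.5 after withdrawal and 2586.7 and 1965.6 with doxycycline. In Pdgfra the withdrawal arrays thus parted too, but not every marker followed. Thy1 had 546.5 and 513.2 after withdrawal. S100a4 had 7320.8 and 5125.2 there and was lower in replicate 2 of every group. None of 3 blood and 3 endothelial markers passed, and of 4 epithelial markers 2 passed, with Cdh1 between 76.6 and 171.6. Whether these levels have a part in the results on replication genes was not tested. In such bulk RNA, fewer cells in S phase and less RNA per cell cannot be told apart.

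The arrays of these genes did not sort by group label. The 3 arrays labelled estradiol replicate 1, estradiol replicate 2 and withdrawal replicate 1 were alike, and no member differed at least 2-fold between any pair of them. That is near the shares of all probe sets, 3.35% between the estradiol arrays and 3.25% between estradiol replicate 2 and withdrawal replicate 1. Estradiol replicate 1 and withdrawal replicate 1 were so close that only 16 of all 7453 tested probe sets, or 0.215%, differed at least 2-fold. The array labelled withdrawal replicate 2 stood apart from them. Between withdrawal replicates 1 and 2, 14 of the 40 members differed at least 2-fold (12.3% of all probe sets did), and 39 were higher in replicate 1. Withdrawal replicate 2 lay nearer to the doxycycline arrays, with 0 members at least 2-fold from doxycycline replicate 1 and 2 from doxycycline replicate 2, counts near those of all probe sets (4.35% and 7.81%). The title of doxycycline replicate 2 also names estradiol, although its treatment entry lists doxycycline alone, and the array was kept in the doxycycline group. Medians and counts of members are given below with and without these arrays, and counts without an array were added after the data were seen.

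Relative to each gene's mean over the 6 arrays, on the log2(signal + 32) scale used for every log2 value here, the median level of the 40 members was 0.46 on estradiol replicate 1 and 0.56 on estradiol replicate 2. It was 0.46 on withdrawal replicate 1 and -0.41 on withdrawal replicate 2, and -0.23 and -0.70 on doxycycline replicates 1 and 2. The same median over all tested probe sets lay between -0.02 and 0.01 on each array. The highest signal of a member fell on estradiol replicate 2 for 24 genes, on estradiol replicate 1 for 8 and on withdrawal replicate 1 for 8. The lowest fell on doxycycline replicate 2 for 27 genes, on withdrawal replicate 2 for 11 and on doxycycline replicate 1 for 2.

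**Figure D1:**
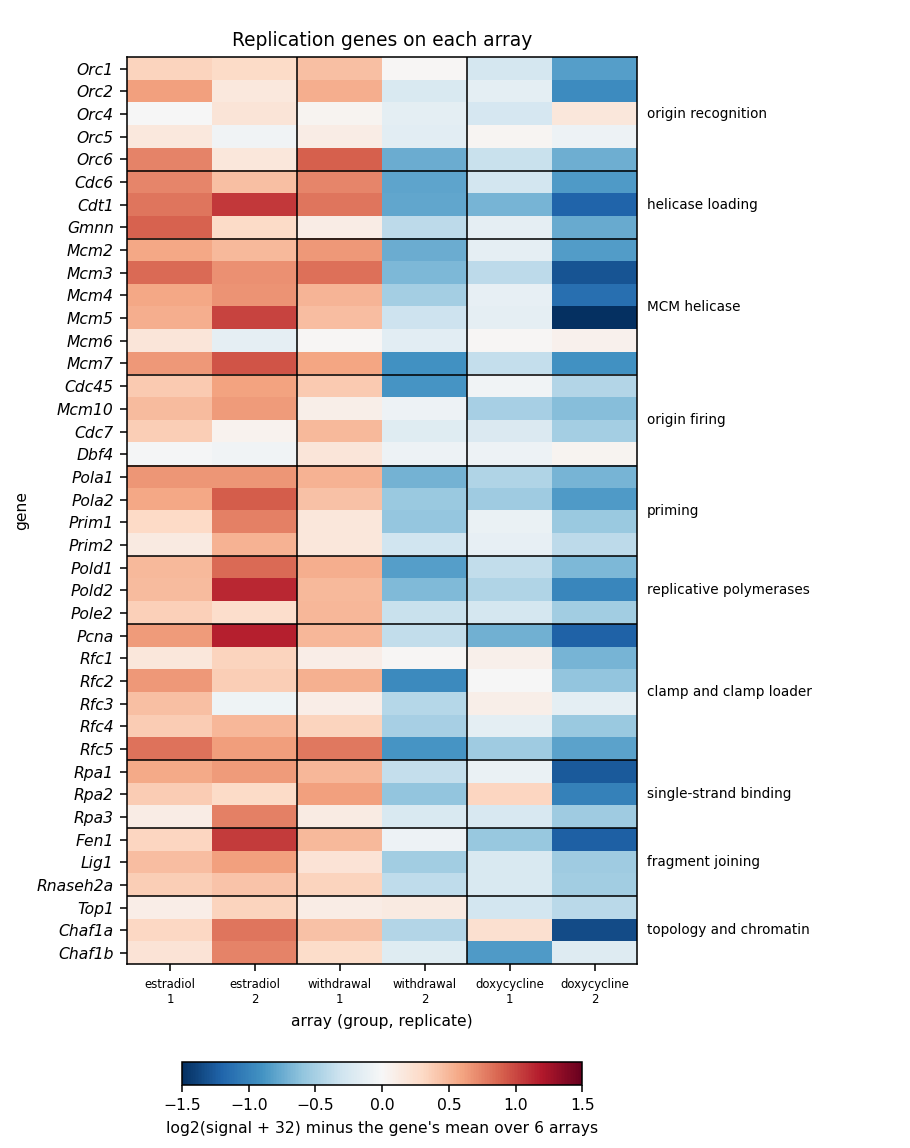
Level of each of the 40 replication genes (rows, grouped by role) on each array (columns), as log2(signal + 32) minus the gene's mean over the 6 arrays, with red above and blue below that mean. Both estradiol arrays and withdrawal replicate 1 have positive medians (0.46, 0.56 and 0.46), and withdrawal replicate 2 (-0.41) and both doxycycline arrays (-0.23 and -0.70) have negative ones.

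The clearest contrast was that of the estradiol group with the doxycycline group. These groups differ in both the oncogenes and the activated IRF-1 fusion, and also in doxycycline and estradiol themselves. Replication genes were higher with estradiol in 38 of 40 cases, in both replicate numbers for those same 38, with a median log2 fold change of 0.96. Over all 7453 tested probe sets 50.4% were higher and the median was 0.00. Both estradiol signals lay above both doxycycline signals for 34 of the 40 genes, against 27.0% of all probe sets, and below them for 0, against 24.7%. Without doxycycline replicate 2 the count above was 36 (38.8% of all probe sets). It lay between 35 and 38 when any of the 4 arrays was left out, against 38.0% to 40.2% of all probe sets. The median was 0.68 in replicate 1 and 1.21 in replicate 2, and it lay between 0.67, without doxycycline replicate 2, and 1.19, without doxycycline replicate 1, when arrays were left out in turn.

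No single member passed the test across all probe sets when all 6 arrays shared an estimate of the spread. The limma model called 0 of 38 members at an adjusted p under 0.05, against 0% of all probe sets, and the smallest adjusted p was 0.255. At an unadjusted p under 0.05, 24 members were higher and 0 lower, while 8.31% of all probe sets were higher and 5.66% lower at that level. That count of 24 depended on single arrays: it was 6 without doxycycline replicate 2 (3.54% of all probe sets higher), 9 without estradiol replicate 2 (2.25%), 14 without estradiol replicate 1 (6.60%) and 26 without doxycycline replicate 1 (5.58%). In that model the withdrawal arrays, which disagree with each other, enter the spread. With the 4 estradiol and doxycycline arrays alone, 6 of 38 members rose (adjusted p under 0.05), against 1.18% of all probe sets called higher, and 0 fell. They were Cdt1, Pcna, Pola2, Rfc5, Mcm7 and Pola1, with adjusted p between 0.0286 and 0.0482. Leaving out 1 withdrawal array called the same members. That is hardly a separate check, since the remaining withdrawal array adds nothing to the residual spread. The calls did not hold when an estradiol or a doxycycline array was left out of the model over all groups.

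**Figure D2:**
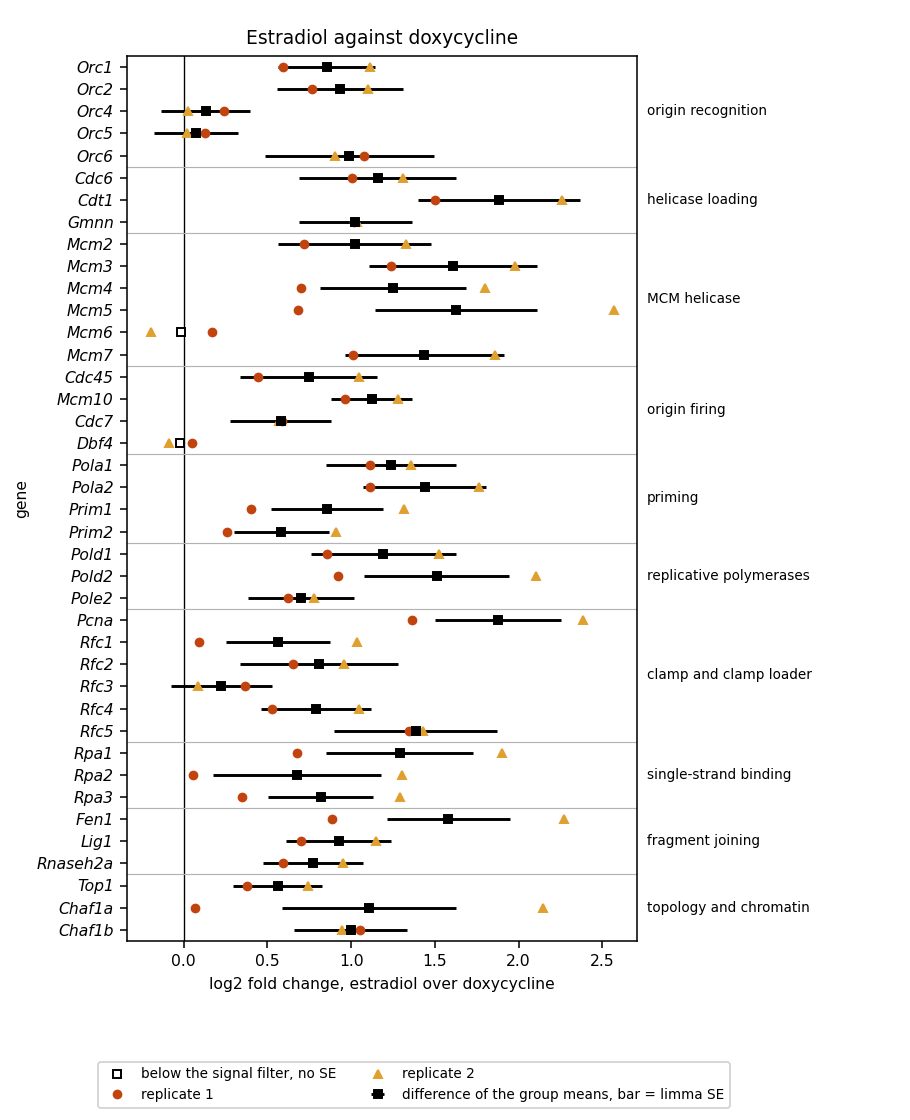
Log2 fold change of estradiol over doxycycline for each replication gene, with the value in replicate 1 (circle), in replicate 2 (triangle) and between the group means (square, bar showing the standard error of limma). Mcm6 and Dbf4, below the signal filter, have open squares near 0, while Cdt1 and Pcna lie farthest right at 1.88 each.

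Among the genes that mark and license origins, the largest log2 fold change was that of Cdt1. Cdt1, which brings the helicase to origins, had signals of 641.2 and 772.4 with estradiol, 636.9 and 192.4 after withdrawal and 205.7 and 135.7 with doxycycline. Its log2 fold change for estradiol over doxycycline was 1.88 (SE 0.48 over all 6 arrays, adjusted p = 0.255; SE 0.27 with the 4 arrays, adjusted p = 0.0286). Withdrawal replicate 1 matched the estradiol arrays and withdrawal replicate 2 the doxycycline arrays. Cdc6, the ATPase that loads the helicase with the origin recognition complex, had 223.4 and 179.3 with estradiol, 224.5 and 57 after withdrawal and 95.1 and 53.3 with doxycycline (1.16, SE 0.47). Gmnn, the geminin gene, had 151.2 and 88.5 with estradiol, 75 and 43.2 after withdrawal and 58.5 and 26.9 with doxycycline (1.03, SE 0.34). Gmnn was thus higher alongside Cdt1, the protein it blocks, and its estradiol replicate 1 signal exceeded withdrawal replicate 1 by 0.78 on the log2 scale, the widest gap of any member between that close pair of arrays.

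The origin recognition complex was uneven. Orc1, its largest subunit, had signals of 52.4 and 49.5 with estradiol, 59.8 and 35.9 after withdrawal and 23.9 and 5.7 with doxycycline (log2 fold change 0.85, SE 0.29, adjusted p = 0.287 with limma). Orc2 and Orc6 had log2 fold changes of 0.93 (SE 0.38) and 0.99 (SE 0.50). Orc4 and Orc5, by contrast, overlapped between the groups. Orc4 had signals of 108.5 and 129.2 with estradiol, 113.9 and 96 after withdrawal and 87.1 and 126.7 with doxycycline (0.13, SE 0.26). Orc5, with 141.7 and 118.3, 136.1 and 107.3, and 126.9 and 116.4 in the same groups, stood at 0.07 (SE 0.25). Whether these subunits differ in their response was not tested.

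Within the MCM helicase ring, 5 of 6 genes were higher with estradiol, in both replicate numbers. Mcm5 had signals of 612.3 and 858 with estradiol, 576.4 and 324.3 after withdrawal and 369.2 and 118 with doxycycline (log2 fold change 1.63, SE 0.49, adjusted p = 0.258 with limma). Mcm3 had 729.3 and 644.6 with estradiol, 715.5 and 232 after withdrawal and 290.7 and 140 with doxycycline (1.61, SE 0.50). Mcm7 had 691.7 and 860.2 with estradiol, 664.7 and 214.6 after withdrawal and 327.6 and 213.5 with doxycycline (1.44, SE 0.47; adjusted p = 0.0482 with the 4 arrays). For all 3 genes withdrawal replicate 1 lay beside estradiol replicate 1, while withdrawal replicate 2 lay below doxycycline replicate 1. Mcm4 had 744.8 and 794.6 with estradiol, 709 and 332.3 after withdrawal and 445.4 and 205.8 with doxycycline (1.25, SE 0.44). Mcm2 had 344.2 and 319.8 with estradiol, 364.2 and 118.6 after withdrawal and 197 and 108.3 with doxycycline (1.02, SE 0.46). The value of Mcm5 was 0.68 in replicate 1 and 2.57 in replicate 2. Without doxycycline replicate 2, Mcm5, Mcm3, Mcm7, Mcm4 and Mcm2 stood at 0.92, 1.15, 1.16, 0.75 and 0.67. The probe set of Mcm6 gave signals of 12 and 3.3 with estradiol, 7.1 and 2.8 after withdrawal and 7.2 and 8.5 with doxycycline, too dim to follow the gene.

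Promoters of members that moved together are shown to set these signals beside the E2F motif, here TTTCGCGC or TTTGGCGC on either strand. Promoter windows, 250 bases before to 50 after an annotated start, were taken from RefSeq for 36 of the 42 listed genes. A gene with several annotated starts was counted where any of its windows held a match. The motif was found in 10 of them (27.8%), namely Orc1, Cdt1, Mcm3, Mcm5, Mcm6, Mcm7, Pola1, Pole2, Rfc3 and Lig1, and in 251 of all 27025 genes (0.929%). The NF-Y box CCAAT was found in 22 of the 36 (61.1%) and in 41.1% of all genes, and the Sp1 box GGGCGG in 28 (77.8%) and in 38.2%. The 4 windows with the motif whose genes had the highest mean signals are printed 5′ to 3′ along the gene, with the E2F motif in capitals.
Mcm7, GRCm38.p6 chr5:138171834-138172133, minus strand: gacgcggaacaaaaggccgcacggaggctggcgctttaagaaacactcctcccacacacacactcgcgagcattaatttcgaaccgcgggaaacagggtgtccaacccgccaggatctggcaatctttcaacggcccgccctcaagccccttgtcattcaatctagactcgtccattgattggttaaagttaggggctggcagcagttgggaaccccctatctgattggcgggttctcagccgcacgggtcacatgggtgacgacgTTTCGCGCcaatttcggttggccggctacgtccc
Mcm5, GRCm38.p6 chr8:75109259-75109558, plus strand: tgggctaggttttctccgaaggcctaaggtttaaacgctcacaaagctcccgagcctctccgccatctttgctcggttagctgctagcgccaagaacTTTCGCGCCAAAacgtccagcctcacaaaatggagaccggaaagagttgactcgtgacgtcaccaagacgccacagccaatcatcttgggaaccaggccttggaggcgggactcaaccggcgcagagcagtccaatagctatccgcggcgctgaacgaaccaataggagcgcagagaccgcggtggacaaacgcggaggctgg
Mcm3, GRCm38.p6 chr1:20820263-20820562, minus strand: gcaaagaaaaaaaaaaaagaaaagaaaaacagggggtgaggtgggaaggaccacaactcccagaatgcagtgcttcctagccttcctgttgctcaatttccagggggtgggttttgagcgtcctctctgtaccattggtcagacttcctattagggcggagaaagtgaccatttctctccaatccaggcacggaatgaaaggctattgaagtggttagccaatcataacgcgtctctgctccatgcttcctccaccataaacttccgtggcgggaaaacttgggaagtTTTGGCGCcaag
Cdt1, GRCm38.p6 chr8:122567765-122568064, plus strand: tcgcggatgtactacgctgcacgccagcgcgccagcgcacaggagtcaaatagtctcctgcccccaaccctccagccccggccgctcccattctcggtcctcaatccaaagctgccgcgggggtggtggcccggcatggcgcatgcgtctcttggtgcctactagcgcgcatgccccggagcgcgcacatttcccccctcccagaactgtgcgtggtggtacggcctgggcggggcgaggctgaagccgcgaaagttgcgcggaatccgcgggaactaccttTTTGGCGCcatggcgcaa
In Mcm5 the capitals cover both motif forms, on opposite strands, at overlapping positions between -153 and -142 from the start. In Mcm7 the motif, at 17 to 24, shares its last base with a CCAAT box. In Mcm3 and Cdt1 it lies downstream of the annotated start, at 39 to 46 and 33 to 40. A match is a description of the letters and not a binding site. The 10 measured genes with the motif had a median log2 fold change of 1.08 for estradiol over doxycycline. The 26 with a window but no match had 0.96. The 10 include Mcm6 and the 26 include Dbf4, whose probe sets were too dim to follow and stood at -0.02 each. Among the larger differences were Cdt1, Mcm5, Mcm3 and Mcm7, with a match, and Pcna, Fen1, Pola2 and Rfc5, without one. Among the smaller were Rfc3, with a match, and Orc4 and Orc5, without one. Whether the motif goes with the size of the difference was not tested.

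**Figure D3:**
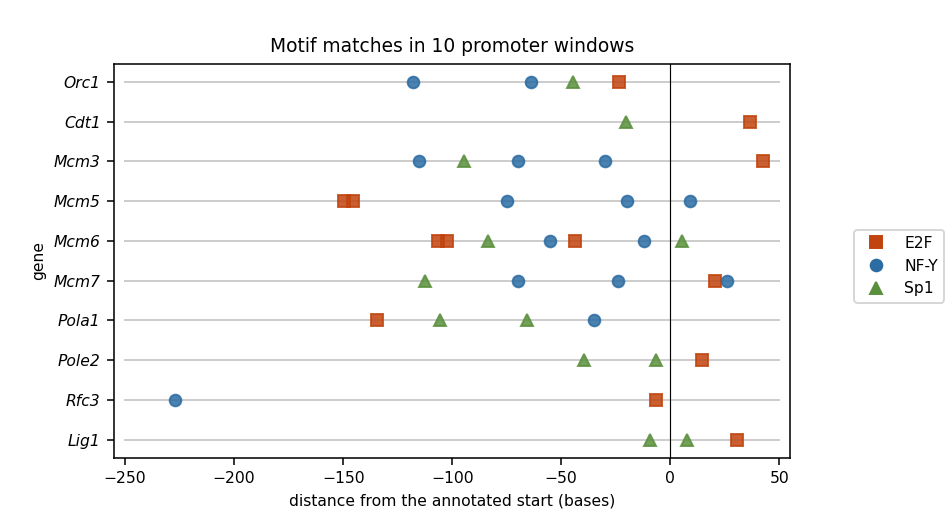
Positions of the E2F (square), NF-Y (circle) and Sp1 (triangle) motif matches, on either strand, in the 10 promoter windows that hold an E2F match, against the distance in bases from the annotated start (vertical line). The E2F match lies at 39 to 46 in Mcm3 and between -153 and -142 in Mcm5.

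Genes of origin firing were higher with estradiol than with doxycycline in 3 of 4 cases. Mcm10, which helps to start the helicase, had signals of 77.7 and 91.5 with estradiol, 52.4 and 43.4 after withdrawal and 24.2 and 18.9 with doxycycline. Its log2 fold change was 1.12 (SE 0.24, adjusted p = 0.255 with limma). In Mcm10, as in Pcna, the 3 groups did not overlap, with both withdrawal arrays between the estradiol and doxycycline pairs. Cdc45, the helicase co-factor, and the kinase gene Cdc7 had log2 fold changes of 0.75 (SE 0.41) and 0.58 (SE 0.30). Dbf4, read by a probe set with signals between 0.4 and 6.6, could not be followed.

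The priming genes, which encode primase and polymerase alpha, had a median log2 fold change of 1.05 for estradiol over doxycycline. The measured genes of polymerases delta and epsilon had a median of 1.19. Pola1, the catalytic subunit of polymerase alpha, had signals of 218.2 and 218.5 with estradiol, 194.1 and 64.9 after withdrawal and 83.6 and 65.7 with doxycycline (log2 fold change 1.24, SE 0.39; adjusted p = 0.0482 with the 4 arrays). Its partner Pola2 had 439.3 and 559.6 with estradiol, 394.2 and 182.5 after withdrawal and 186 and 142.2 with doxycycline (1.44, SE 0.37; adjusted p = 0.0431 with the 4 arrays). Prim1, the small primase subunit, had 55 and 87.8 with estradiol, 47.5 and 15.3 after withdrawal and 33.9 and 16.2 with doxycycline (0.86, SE 0.34). For each of these genes withdrawal replicate 2 lay below doxycycline replicate 1. Prim2, the large primase subunit, had a log2 fold change of 0.58 (SE 0.28). Pold1 and Pold2 of polymerase delta had 1.19 (SE 0.43) and 1.51 (SE 0.43), and Pole2 of polymerase epsilon 0.70 (SE 0.32).

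The sliding clamp had a larger log2 fold change than the 5 subunits of its loader, a gap that was not tested. Pcna, the clamp that tethers polymerases to DNA, had signals of 698.1 and 1021 with estradiol, 631.6 and 331.2 after withdrawal and 251.2 and 169.6 with doxycycline. The log2 fold change of estradiol over doxycycline was 1.88 (SE 0.38, adjusted p = 0.255 with limma; SE 0.29 and adjusted p = 0.0301 with the 4 arrays). Both withdrawal signals of Pcna lay between those of the other groups. Of the loader subunits, Rfc5 had 359.7 and 310.8 with estradiol, 353.4 and 88.6 after withdrawal and 122.3 and 95.3 with doxycycline (1.39, SE 0.49; adjusted p = 0.0431 with the 4 arrays). Rfc3 had 133.8 and 83.8 with estradiol, 97.4 and 57.9 after withdrawal and 96.7 and 77.2 with doxycycline (0.23, SE 0.30), so its groups overlapped. Rfc1, Rfc2 and Rfc4 lay between, at 0.56 (SE 0.31), 0.81 (SE 0.47) and 0.79 (SE 0.33). The value of Rfc1 was 0.09 in replicate 1 and 1.04 in replicate 2, and 0.18 without doxycycline replicate 2.

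**Figure D4:**
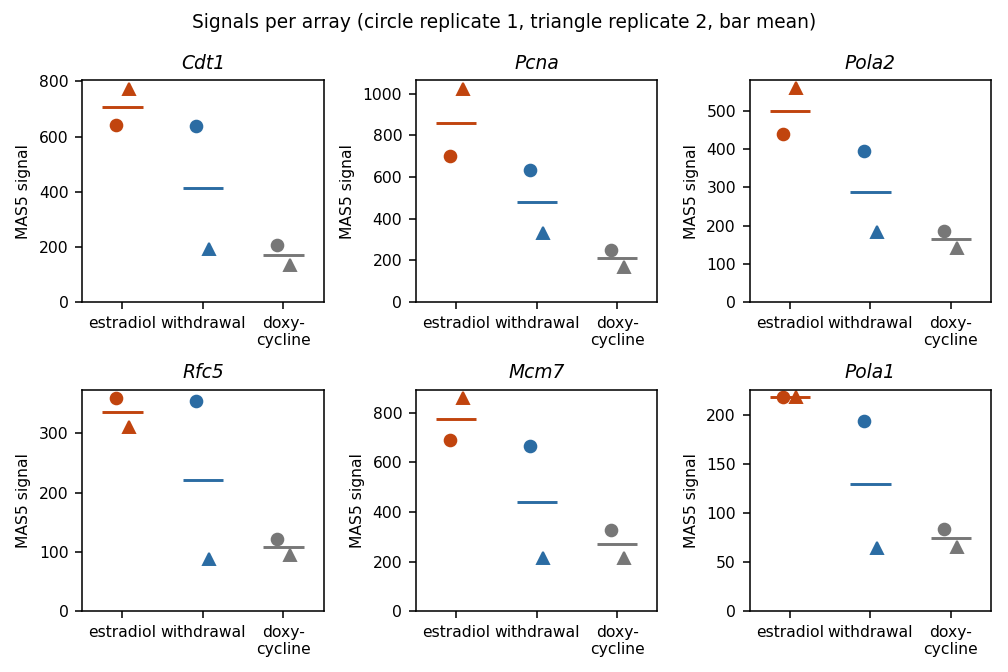
Signals on each array for the 6 replication genes with an adjusted p under 0.05 in the fit of the 4 estradiol and doxycycline arrays alone; circles are replicate 1, triangles replicate 2 and bars group means. In each gene withdrawal replicate 1 lies near the estradiol arrays and withdrawal replicate 2 below it, as for Cdt1 at 636.9 and 192.4.

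Of the genes that protect single strands and finish the lagging strand, Fen1 had the largest log2 fold change. Fen1, the flap endonuclease, had signals of 185.4 and 328.2 with estradiol, 210.8 and 133.1 after withdrawal and 85.5 and 42.5 with doxycycline (log2 fold change 1.58, SE 0.37, adjusted p = 0.255 with limma). Lig1, the DNA ligase that seals Okazaki fragments, had 271 and 303 with estradiol, 220.6 and 120.6 after withdrawal and 154.5 and 119.1 with doxycycline (0.92, SE 0.31). In Lig1 both estradiol arrays were above all others, while in Fen1 withdrawal replicate 1 lay above estradiol replicate 1. Rnaseh2a, which removes RNA primers, had 0.77 (SE 0.30). Rpa1 and Rpa3 of the single-strand binding complex had 1.29 (SE 0.44) and 0.82 (SE 0.31). Rpa2, its middle subunit, had 71.2 and 65.1 with estradiol, 89.3 and 20.6 after withdrawal and 67.5 and 7.4 with doxycycline (0.68, SE 0.50), a difference that was 0.05 in replicate 1 and 1.30 in replicate 2.

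The chromatin and topology genes were higher as well, in part through 1 array. Chaf1a, the large subunit of the histone chaperone CAF-1, had signals of 125.5 and 190.2 with estradiol, 141.3 and 61.8 after withdrawal and 118.2 and 18.3 with doxycycline. Its log2 fold change for estradiol over doxycycline was 1.11 (SE 0.52), but 0.07 in replicate 1 against 2.14 in replicate 2, and 0.32 without doxycycline replicate 2. Chaf1b, the middle subunit, had 163.5 and 254 with estradiol, 174 and 118.5 after withdrawal and 62.2 and 116.7 with doxycycline (1.00, SE 0.34), with 1.05 in replicate 1. Top1, the topoisomerase that relieves torsion ahead of the fork, had 905.3 and 1074.7 with estradiol, 909.6 and 930 after withdrawal and 688.9 and 629.9 with doxycycline (0.56, SE 0.27). Top1 was the sole member with a signal on withdrawal replicate 2 above withdrawal replicate 1.

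The withdrawal and doxycycline groups were compared to see what turning on the oncogenes changes, although doxycycline itself differs between them too. Replication genes were higher after withdrawal in 36 of 40 cases, with a median log2 fold change of 0.48 against 0.01 over all tested probe sets. The replicates disagreed, with 39 of 40 higher and a median of 0.60 in replicate 1, but 28 of 40 and 0.17 in replicate 2. Both withdrawal signals lay above both doxycycline signals for 8 genes and below them for 1, Mcm6, against 16.8% and 15.0% of all probe sets. The 8 were Orc1, Mcm10, Cdc7, Pcna, Rpa3, Fen1, Top1 and Chaf1b. Without withdrawal replicate 1, 8 members lay above both doxycycline signals and 11 below (39.1% and 34.7% of all probe sets), and without withdrawal replicate 2, 38 lay above and 1 below (37.3% and 36.6%). Without doxycycline replicate 2, 9 lay above and 1 below, against 29.6% and 25.7% of all probe sets. Without doxycycline replicate 1, 28 lay above and 2 below, against 30.8% and 29.7%. The median depended on single arrays: it was 0.02, with 20 of 40 genes higher, without withdrawal replicate 1, 0.92 without withdrawal replicate 2, 0.66 without doxycycline replicate 1 and 0.20 without doxycycline replicate 2.

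With limma, 0 of 38 members were called between withdrawal and doxycycline, against 0% of all probe sets, and 4 were higher at an unadjusted p under 0.05 and 0 lower (2.07% and 2.31% of all probe sets). The count of 4 was 22 without withdrawal replicate 2 (6.74% of all probe sets higher), 7 without doxycycline replicate 1 (1.87%), and 0 without withdrawal replicate 1 (4.23%) or doxycycline replicate 2 (0.657%). These 4 were Fen1 (log2 fold change 1.10, SE 0.37), Pcna (1.04, SE 0.38), Orc1 (0.78, SE 0.29) and Mcm10 (0.58, SE 0.24), each with an adjusted p of 0.925. They were higher in both replicate numbers, as were 28 of all 40 members, with Fen1 at 1.05 and 1.15 and Mcm10 at 0.59 and 0.57. Because these 4 were picked by p from the same arrays, their agreement across arrays is no separate support. Without withdrawal replicate 1 their values were 0.82, 0.60, 0.56 and 0.50. Cdc6, Mcm2, Mcm7, Pola1 and Lig1, by contrast, had values of 0.54, 0.45, 0.48, 0.48 and 0.23 that turned negative without that array. Rfc3 was close to level at -0.14 (SE 0.30). Cdc45, at 0.00 (SE 0.41), averaged opposite differences, 0.45 in replicate 1 and -0.44 in replicate 2.

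The estradiol and withdrawal groups were compared to see what activated IRF-1 changes in cells with the oncogenes on. Here the difference lay mainly in replicate 2, and it shrank most when withdrawal replicate 2 was left out. In replicate 1, 22 of 40 members were higher with estradiol and the median log2 fold change was 0.02. In replicate 2, 40 of 40 were higher and the median was 0.99. Over both, 39 of 40 were higher with a median of 0.54, against 0.01 over all tested probe sets, and both estradiol signals exceeded both withdrawal signals for 15 genes and lay below them for 0 (11.5% and 10.2% of all probe sets). Without withdrawal replicate 1, 39 lay above and 0 below (38.5% and 37.5% of all probe sets), and without withdrawal replicate 2, 15 above and 8 below (29.8% and 26.5%). When withdrawal replicate 2 was left out, the median was 0.11 and 27 of 40 were higher. When withdrawal replicate 1 was left out, it was 0.97 with 40 of 40 higher. The median was 0.58 without estradiol replicate 1, with 36 of 40 higher, and 0.49 without estradiol replicate 2, with 38 of 40 higher.

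Limma called 0 of 38 members between estradiol and withdrawal, against 0% of all probe sets, with an adjusted p of 1.00 throughout, and 0 members had an unadjusted p under 0.05 (0.335% of all probe sets were higher and 0.362% lower at that level). Without withdrawal replicate 1, 20 members were higher at that level, against 8.04% of all probe sets. The 4 members with the smallest unadjusted p were Mcm10 (0.55, SE 0.24), Lig1 (0.70, SE 0.31), Pcna (0.84, SE 0.38) and Pola2 (0.80, SE 0.37). Gmnn, Rfc3 and Mcm10 were the members whose difference in replicate 1 exceeded 0.3, at 0.78, 0.36 and 0.38, and they stood at 0.68, 0.37 and 0.71 in replicate 2. In Cdt1 and Mcm7 the difference was 0.01 and 0.05 in replicate 1 and 1.84 and 1.86 in replicate 2. Orc1 and Top1 were nearly level, at 0.07 (SE 0.29) and 0.10 (SE 0.27). Since all the cells carry the fusion, activation of IRF-1 and other effects of estradiol cannot be told apart.

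**Figure D5:**
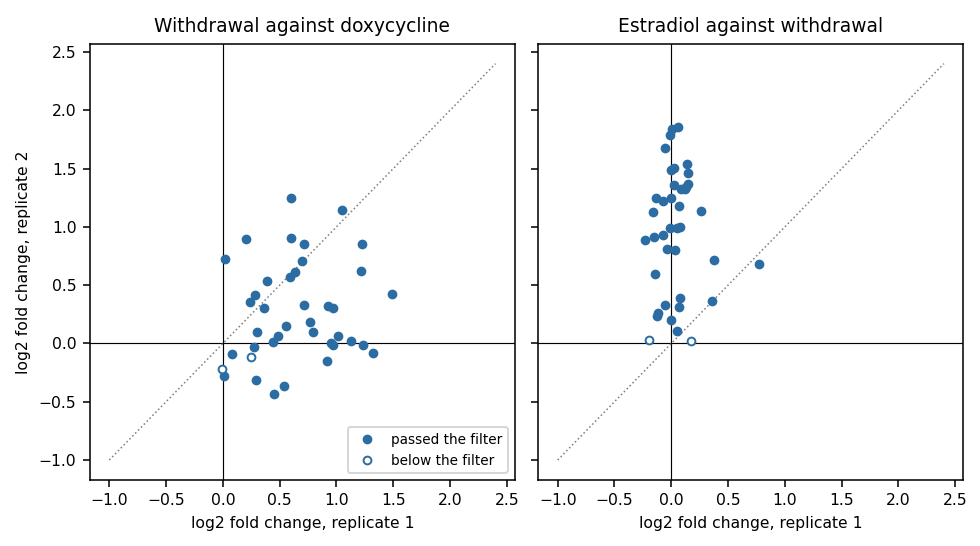
Log2 fold change in replicate 1 (horizontal) and in replicate 2 (vertical) for each of the 40 replication genes, for withdrawal over doxycycline (left) and estradiol over withdrawal (right); the dotted line marks equal values and open circles are genes below the signal filter. On the right nearly all genes lie along the vertical axis, with medians of 0.02 in replicate 1 and 0.99 in replicate 2.

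Several members were read by a second probe set. The second probe sets of Cdt1 and Mcm3, which passed the filter, gave log2 fold changes of 1.15 and 1.65 for estradiol over doxycycline, against 1.88 and 1.61 for the brighter ones. That of Rfc1 gave 0.94 against 0.56, with signals of 82.5 and 70 with estradiol, 61.9 and 7.2 after withdrawal and 8.2 and 46.9 with doxycycline. The second probe sets of Mcm5, Lig1 and Pold1 differed in sign from the brighter ones, at -0.11, -0.37 and -0.07, but none of these passed the filter. Their signals lay at or below 53.4 on every array. Those of Pola2, Rfc5, Orc2 and Orc5, also below the filter, gave 0.19, 0.28, 0.21 and 0.15, against 1.44, 1.39, 0.93 and 0.07. For estradiol over withdrawal, the second probe sets of Pola2 and Orc5 differed in sign, at -0.19 and -0.06 against 0.80 and 0.08. For withdrawal over doxycycline, those of Orc2, Orc5, Mcm5, Pold1 and Lig1 did, at -0.03, 0.21, -0.53, -0.10 and -0.53.

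Other genes of replication, outside the members, were read from a list of 34, with examples picked after their values were seen. Of the list, 21 had a probe set and 20 passed the filter. All 21 were higher with estradiol than with doxycycline, with a median log2 fold change of 0.61, and limma called 0 of 20 in either direction at an adjusted p under 0.05 in each of the 3 comparisons. Top2a, the topoisomerase that separates sister chromosomes, had signals of 407 and 484.4 with estradiol, 385.2 and 182.4 after withdrawal and 183.2 and 53.9 with doxycycline (1.81). Tipin, of the complex that stabilises paused forks, had 76.4 and 74.3 with estradiol, 76.7 and 12.7 after withdrawal and 6 and 5.1 with doxycycline (1.52). Both genes showed the same split of the withdrawal arrays as most members. The split ran the other way in Pold4, Top2b, Rad17, Rbbp4 and Gins2. Pold4, for example, had 84.6 on withdrawal replicate 1 and 203.9 on withdrawal replicate 2. The median of the list was 0.32 for withdrawal over doxycycline and 0.32 for estradiol over withdrawal. For estradiol over withdrawal, replicate 1 alone gave 0.02 and replicate 2 alone 0.56. The 4 genes that were lower with estradiol than after withdrawal were Top2b at -0.39, Gins2 at -0.34, which was below the filter, Rad17 at -0.16 and Rbbp4 at -0.08.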

How the data were processed

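RNA from 6 samples of an engineered NIH3T3 line was measured on 1-colour Affymetrix arrays, 1 per sample. The authors deposited 1 intensity per probe set, on a linear scale, made with MAS5 per the submitters' processing notes, whose version is not given. The arrays had nearly equal trimmed means (150.09 to 150.10, leaving out 2% at each end) and were scaled to their average. Gene names came from the platform annotation, and probe sets with several symbols were tested but not named.

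Signals were turned into log2(signal + 32), which understates changes of dim probe sets. After leaving out 66 controls and the dimmest 40%, 7453 of 12488 probe sets entered a limma fit (version 3.58.1, R 4.3.3) with 1 mean per group over all 6 arrays, empirical Bayes moderation with an intensity trend and 3 residual degrees of freedom. P-values are two-sided and Benjamini-Hochberg adjusted over all tested probe sets (threshold 0.05). Counts and medians cover all 40 members with a probe set, filtered or not. The model was checked on simulated data. The members, lists and the rule for named genes (18 members fixed by name, plus the 4 smallest p per comparison) were chosen with earlier results of these data known, and no p is adjusted over the list. The number of arrays limits the precision of every value.

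Replicate numbers mark the RNA extraction method, per the labels' protocols, and so a shared batch. Deviations from the group means correlated across probe sets at 0.449 between estradiol and withdrawal, -0.0284 between estradiol and doxycycline and -0.00727 between withdrawal and doxycycline. Alternatives were other pseudocounts, filters, quantile normalization, no trend, the 2 groups alone, the replicate block, the mean of all probe sets per gene and each array left out.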

Additional observations from a re-analysis of the deposited data

How the results depend on the processing

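The numbers of called probe sets and members and the list medians kept their main outcome under the pseudocounts of 8 and 64, no filter, the filter of 60%, quantile normalization, no intensity trend and the replicate block. With the replicate block, the pairing by extraction batch left 0 probe sets and 0 members called in each comparison, and the medians stayed at 0.96, 0.48 and 0.54 for estradiol over doxycycline, withdrawal over doxycycline and estradiol over withdrawal; it changed no call. For estradiol over doxycycline, the fit of those 2 groups alone called 132 probe sets and 6 members, and leaving out arrays gave 0 to 133 probe sets and 0 to 6 members. There Cdt1 (1.88), Mcm7 (1.44), Pola1 (1.24), Pola2 (1.44), Rfc5 (1.39) and Pcna (1.88) passed with the 2 groups alone. For withdrawal over doxycycline, leaving out arrays gave 0 to 26 called probe sets, and a median between 0.020 and 0.92. For estradiol over withdrawal it gave 0 to 17 called probe sets and a median between 0.11 and 0.97. The 2 groups alone differ from the 6-array fit by leaving the withdrawal arrays out of the spread. The cause of the other shifts was not tested.

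Of the 40 members, 5 changed sign when 1 array was left out for estradiol over doxycycline, 22 for withdrawal over doxycycline and 15 for estradiol over withdrawal. Among the genes named by the rule and past the filter, these had log2 fold changes in the following ranges, for estradiol over doxycycline in Rfc3 (-0.034 to 0.48), for withdrawal over doxycycline in Cdc6 (-0.23 to 1.30), Gmnn (-0.013 to 0.61), Mcm2 (-0.25 to 1.14), Mcm7 (-0.27 to 1.23), Pola1 (-0.13 to 1.09), Prim1 (-0.25 to 0.50), Rfc3 (-0.40 to 0.13), Rpa2 (-0.32 to 1.02), Lig1 (-0.14 to 0.59) and Chaf1a (-0.24 to 1.34), and for estradiol over withdrawal in Orc1 (-0.15 to 0.29), Cdc6 (-0.14 to 1.38), Mcm2 (-0.12 to 1.27), Mcm3 (-0.059 to 1.44) and Rpa2 (-0.28 to 0.93). With the mean of all probe sets, Lig1 stood at -0.15 for withdrawal over doxycycline.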
